A study of Mus musculus with 8 samples.

Results

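The region described here is the plus strand of mouse chromosome 7 between Ube3a and Snrpn, from chr7:66600001-67147631 in build mm9, which is the strand opposite to the long antisense transcript of Ube3a. Its members are the 10-kb bins of that strand that hold probes starting inside those positions, and the border bin at the Snrpn end was cut at the last position. Of 55 bins by position, 4 are left out by the rule, at 66650001, 66750001, 66940001 and 67050001, and 4 have no probe, in a gap of 50.1 kb that begins at 66952130. The remaining 47 bins, of 357 bins with probes on both strands of the tiled locus, hold 5531 of the array's 53834 probes. Of these, 1371 are catalogue probes and 4160 are custom probes set 110 bp apart, and a bin holds between 26 and 214 probes (median 95). Each member probe has a partner at the same positions on the minus strand, so both strands can be read side by side. The strand is that of the probe in the array design, and a plus-strand probe is taken to read RNA of the plus strand.

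Cortical RNA of newborn C57BL/6 mice (postnatal day 0) was hybridised to 8 one-colour arrays. The groups were mice that inherited a Snrpn-to-Ube3a deletion from the mother (maternal deletion, n = 1), mice that inherited it from the father (paternal deletion, n = 1), mice with the maternal deletion and a paternal Snrpn promoter deletion (here the double deletion, n = 2), polyA RNA of the wild types (n = 2) and total RNA of wild-type littermates (n = 2). The double deletions carry different promoter alleles, 0.9 and 4.8, but title and genotype label disagree on which sample has which, so they are numbered 1 and 2 here and neither allele is given a value. Both also carry the maternal deletion, so the maternal deletion is the control for the promoter. By its name the Snrpn-to-Ube3a deletion spans this region, so samples that carry it hold 1 copy of the region and wild types 2. What part the missing copy has in a difference from wild type was not tested. How many animals went into a sample is not stated, and the spread behind each p-value is that between these samples, which may be technical. Among total RNA samples it also holds the difference between the double deletions, which carry different promoter alleles. Cortex holds neurons, glia and vessels, and fewer expressing cells cannot be told apart from less RNA per cell. The files name no genes, so the tissue could not be checked against cell type markers.

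Ube3a encodes an E3 ubiquitin ligase that neurons express mainly from the maternal chromosome, and loss of the human maternal gene causes Angelman syndrome. On the paternal chromosome a long transcript starts at Snurf and Snrpn, on the minus strand, passes the host exons of the clustered small nucleolar RNAs Snord116 and Snord115, and runs antisense into Ube3a. Snrpn encodes a spliceosomal protein, Ipw is a long non-coding RNA within the domain, and small nucleolar RNAs are excised from introns and guide modification of other RNAs. In the RefSeq table of the later build GRCm38.p6, used here only for names, order and spacing, 1 transcription start with a listed promoter lies between Ube3a and Snurf: that of Ipw, on the minus strand. That table lists 0 starts on the plus strand there.

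The start that faces this strand from the Snrpn end is the Snurf promoter, shown because the double deletions remove promoter sequence at Snrpn on the paternal chromosome (the labels give no positions for the deletions). It is taken from RefSeq, build GRCm38.p6, chr7:60005150-60005449, minus strand, written 5′ to 3′, with the dinucleotide CG, the target of DNA methylation, in capitals.
Snurf: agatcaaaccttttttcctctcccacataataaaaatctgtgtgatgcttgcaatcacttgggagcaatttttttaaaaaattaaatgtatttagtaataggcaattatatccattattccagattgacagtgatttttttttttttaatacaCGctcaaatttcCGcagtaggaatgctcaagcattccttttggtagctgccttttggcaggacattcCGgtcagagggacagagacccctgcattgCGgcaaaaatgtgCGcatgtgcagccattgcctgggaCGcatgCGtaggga
The window of 300 bases holds 7 CG. CG reads the same on both strands and no other motif was searched. Among 32851 mouse promoter windows of the same length the median was also 7, and 52.1% held at least as many.

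A level is the log2 of background-corrected Cy5 intensity minus the array's 75th percentile of the 3338 probes outside the tiled locus, so 0 stands for a fairly bright probe outside the locus. An offset of 50 was added in the correction, so differences of dim probes are understated. Over the 5531 member probes the plus strand averaged 0.06 in the maternal deletion, -0.05 in the paternal deletion, -0.09 and 0.04 in the double deletions, 0.42 and 0.40 in polyA RNA, and 0.12 and 0.07 in wild-type total RNA. The 6 total RNA samples thus lay within a narrow range, and both polyA samples lay above it. At the same positions the minus strand averaged 4.06 in the maternal deletion, 0.19 in the paternal deletion, 1.31 and 2.99 in the double deletions, 1.87 and 1.72 in polyA RNA, and 4.32 and 4.21 in wild-type total RNA. On the minus strand the maternal deletion lay near the wild types and the paternal and double deletions lay below them.

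**Figure D1:**
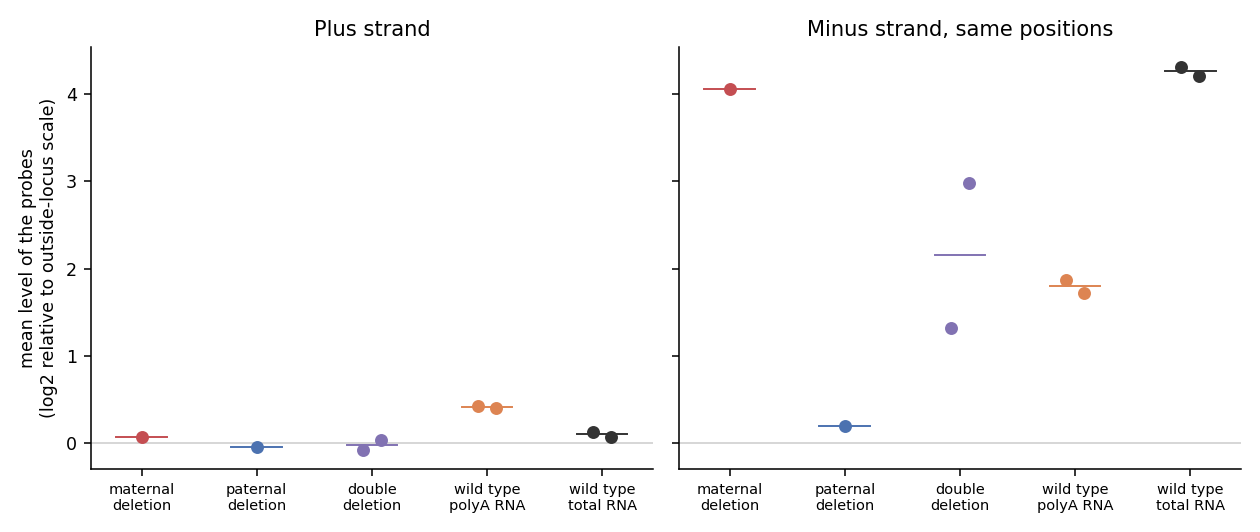
Mean level of 5531 probes between Ube3a and Snrpn on the plus strand (left panel) and of their partners on the minus strand (right panel), in log2 units relative to probes outside the locus; points are samples and short lines are group means. The plus strand sits between -0.09 and 0.42 in all 8 samples, while the minus strand runs between 0.19 in the paternal deletion and 4.32 in wild type 1.

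The distance between the strands within an array does not depend on the scale. The minus strand exceeded the plus strand by 4.00 in the maternal deletion, by 0.24 in the paternal deletion, by 1.40 and 2.95 in the double deletions, by 1.44 and 1.32 in polyA RNA, and by 4.20 and 4.14 in wild-type total RNA, all on the log2 scale. Each distance sets different probes against each other and is compressed by the offset, so it is not read as a fold. The minus strand was above the plus strand in 47 of 47 bins of every array except that of the paternal deletion, where this held for 31 of 47 bins. In that sample the distances of single bins ran between -0.46 and 1.69, with a median of 0.13.

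The plus strand was not silent on the array. The scanner software called 84.3% of its probes well above background in the maternal deletion, 76.7% in the paternal deletion, 80.4% and 81.5% in the double deletions, 61.3% and 56.2% in polyA RNA, and 81.9% and 80.7% in wild-type total RNA. Among probes outside the locus the same call covered 61.7% to 68.2% of probes on total RNA arrays, and 38.2% and 33.8% on polyA arrays. The excess of the region lay in its custom probes, called in 88.1% and 87.3% in wild-type total RNA and in 68.6% and 63.2% in polyA RNA. Its catalogue probes, at 62.9% and 60.5% and at 39.2% and 34.6%, were near the probes outside the locus. The median plus-strand intensity was 95 in the maternal deletion, 72 in the paternal deletion, 85 and 88.5 in the double deletions, 42.5 on both polyA arrays, and 93 and 84 in wild-type total RNA. The local background was 34 to 38 throughout, so a typical plus-strand probe read well above the background on total RNA arrays and little more than the background on polyA arrays.

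Along the region the wild-type level was mostly flat with a few high bins. The 47 bins ran between -0.92 and 1.84 with a median of 0.09, 15 of them lay below 0 and 3 above 1. The highest, chr7:66710001-66720000, measured 1.78 in the maternal deletion, 1.60 in the paternal deletion, 1.64 and 1.83 in the double deletions, 1.54 and 1.49 in polyA RNA, and 1.89 and 1.80 in wild-type total RNA. The bin that starts at 66910001 measured 1.80 in the maternal deletion, 1.88 in the paternal deletion, 1.83 and 1.99 in the double deletions, 2.19 and 1.88 in polyA RNA, and 1.81 and 1.79 in wild-type total RNA. The bin that starts at 66630001 came next, at 1.14 in the maternal deletion, 1.15 in the paternal deletion, 1.15 and 1.31 in the double deletions, 0.90 and 0.83 in polyA RNA, and 1.24 and 1.23 in wild-type total RNA. These high bins stood in every genotype, and the difference of 0.04 between the first and the second in the wild-type mean is smaller than the first bin's SD of 0.06 between wild types.

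The lowest bins lay at the Snrpn end. The bin that starts at 67110001 measured -0.94 in the maternal deletion, -0.97 in the paternal deletion, -1.10 and -1.03 in the double deletions, -0.13 and -0.12 in polyA RNA, and -0.92 in both wild types. Those starting at 67080001 and 67130001 followed, with wild-type means of -0.71 and -0.68. The first bin, at the Ube3a end, averaged -0.14 ± 0.05 in wild types and the last, at the Snrpn end, -0.07 (SD, n = 2). Bins beside the 4 left-out ones, which averaged 4.54, 2.93, 4.72 and 2.84 on this strand in wild types, lay between -0.21 and 1.0. The type of probe moved with these levels: in wild types custom probes averaged 0.38 and 0.31, and catalogue probes -0.67 in both, and what part this has in the profile was not tested.

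**Figure D2:**
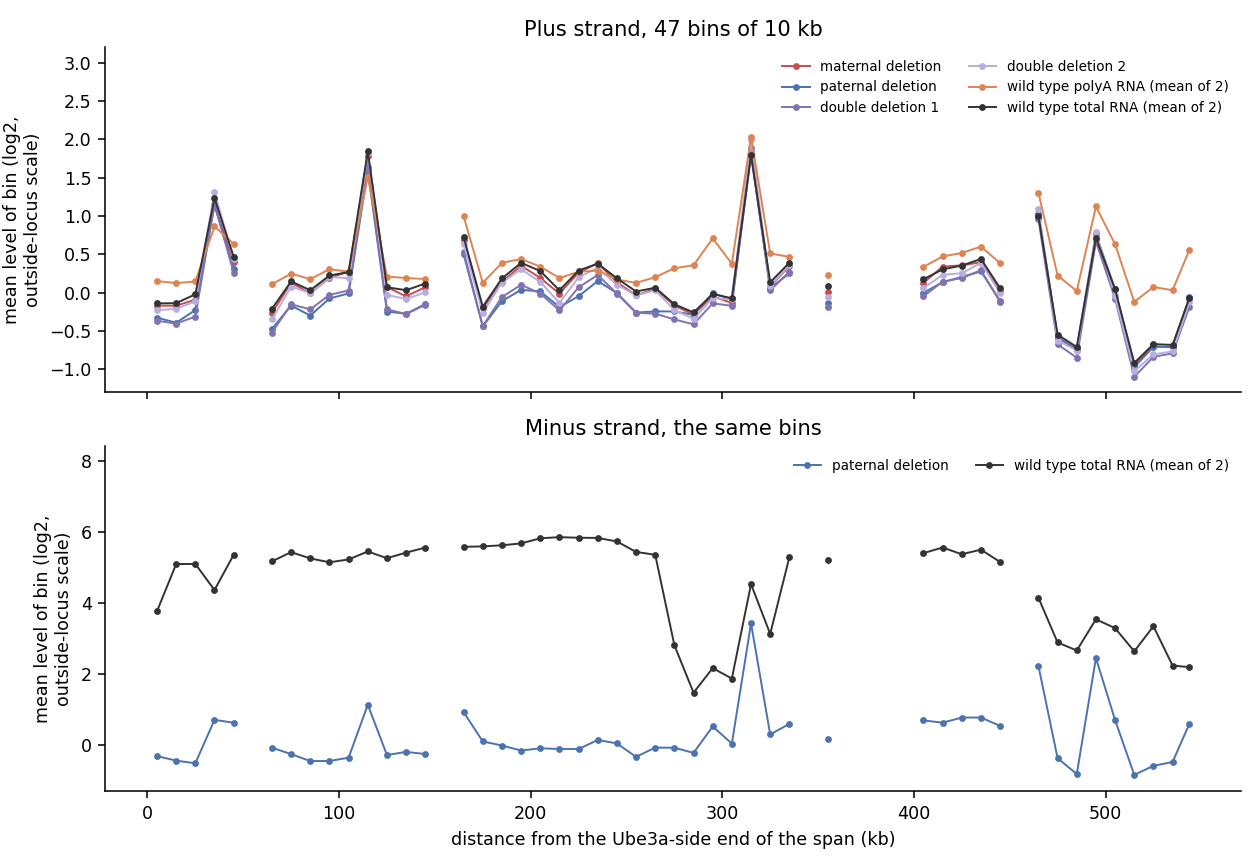
Mean level of each member bin on the plus strand (top, all genotypes and polyA RNA) and of the same bins on the minus strand (bottom, paternal deletion and wild type), in log2 units against distance from the Ube3a-side end in kb; gaps are bins left out or without probes. The plus-strand curves of all genotypes keep the same peaks, up to 1.84 in wild type, while the minus strand of the paternal deletion drops to near the plus-strand level.

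With the maternal deletion the plus strand differed little from wild type. Its mean of 0.06, against 0.09 ± 0.04 in wild types (SD, n = 2), gave a difference of -0.04 (SE 0.08, 95% interval -0.30 to 0.22), with an adjusted p of 0.977 in limma. As a fold of the signal with its offset this is 0.976, with an interval of 0.815 to 1.17. The offset compresses this fold, so it is not read as a fold of RNA. Of the 47 bins, 0 were called at an adjusted p of 0.05 in limma and 0 had an unadjusted p under 0.05, and 0.28% of all bins were called. Their differences ran between -0.09 and 0.04. The 3 bins farthest from wild type began at 66630001, 66800001 and 67100001, each with a difference of -0.09 that did not pass the threshold. In 27 of 47 bins the maternal deletion lay below both wild types, where this held for 68.9% of all bins, and it lay above both in 0 bins (18.5% of all bins).

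With the paternal deletion, which removes the copy that makes the minus-strand transcript, the plus strand was lower in most bins by a small amount that did not pass the test. Its mean of -0.05, against 0.09 ± 0.04 in wild types (SD, n = 2), differed by -0.14 (SE 0.08, 95% interval -0.40 to 0.12), with an adjusted p of 0.431 in limma, a fold of 0.906 with an interval of 0.757 to 1.09. No bin was called (0 of 47 in limma, 0 also at an unadjusted p under 0.05), and 0% of all bins were called in this comparison, which has 1 mutant sample. That 0% includes the minus strand of these bins, whose mean differed from wild type by -4.07. The lack of calls therefore does not show that the plus strand was unchanged. The fold of 0.906 is of signal compressed by the offset and is not read as a fold of RNA. The sample lay below both wild types in 41 of 47 bins, where this held for 49% of all bins, and above both in 4 (31.7% of all bins). The bin that starts at 66790001 measured 0.04 in the paternal deletion, against 0.45 and 0.32 in wild types, a difference of -0.35 (SE 0.13, limma adjusted p 0.235). Those starting at 66820001 and 66680001 followed at -0.33 each (adjusted p 0.179 and 0.245). The size and direction depended on the processing: the region's difference was -0.42 with plain background subtraction, 0.20 after quantile normalization, and 1.11 on a scale that includes the locus itself (limma adjusted p 0.0268, with 47 of 47 bins called higher). That last scale adds 1.25 to each value of this comparison, in all bins of both strands, and the share of all bins called on it is not given.

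The deficit of the paternal deletion, which did not pass the test, was not even along the region. Its bins were divided after their values were seen by the wild-type level of the minus strand opposite them: 33 bins face a minus-strand level of at least 4 and 14 face a lower one. Over the 33 bins the plus-strand difference from wild type had a median of -0.25 and was negative in 31, and the minus strand opposite had a median difference of -5.53. Over the 14 bins the plus-strand median was -0.03 with 11 negative, and the minus-strand median was -2.77. The distance between both sets within an array, which the scale does not touch, was 0.39 in the paternal deletion, 0.57 in the maternal deletion, 0.49 and 0.58 in the double deletions, and 0.62 and 0.53 in wild types. The paternal deletion thus had the smallest distance among the total RNA samples, and double deletion 1 the next. On the dimmer polyA arrays of wild types the distance was smaller still, at 0.11 and 0.08. What part an array's brightness has in this distance was not tested.

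Across the 47 bins the plus-strand difference of the paternal deletion and the wild-type level of the opposite strand had a Pearson correlation of -0.787. The same correlation was -0.0427 for the maternal deletion, -0.557 for double deletion 1 and -0.148 for double deletion 2. These are descriptions over bins that share arrays, wild-type samples and probe design, and most bins stand in 1 cluster with a minus-strand level above 5. The sets also differ in probe type, since the 14 bins facing a lower minus strand hold 966 of the 1371 catalogue probes, and the part of this in the difference was not tested. The 14 bins also had the lower plus-strand level in wild types, -0.24 against 0.33. Grouped by wild-type level, member probes below -1 differed by -0.06 in the paternal deletion. Those from -1 to 0 and from 0 to 2 differed by -0.20 and -0.21. Those from 2 to 4 differed by -0.10 and brighter ones by 0.03. What part this has was not tested either. With custom probes alone, a choice made after seeing the data, the region's difference in the paternal deletion was -0.17, and with catalogue probes alone it was -0.07.

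**Figure D3:**
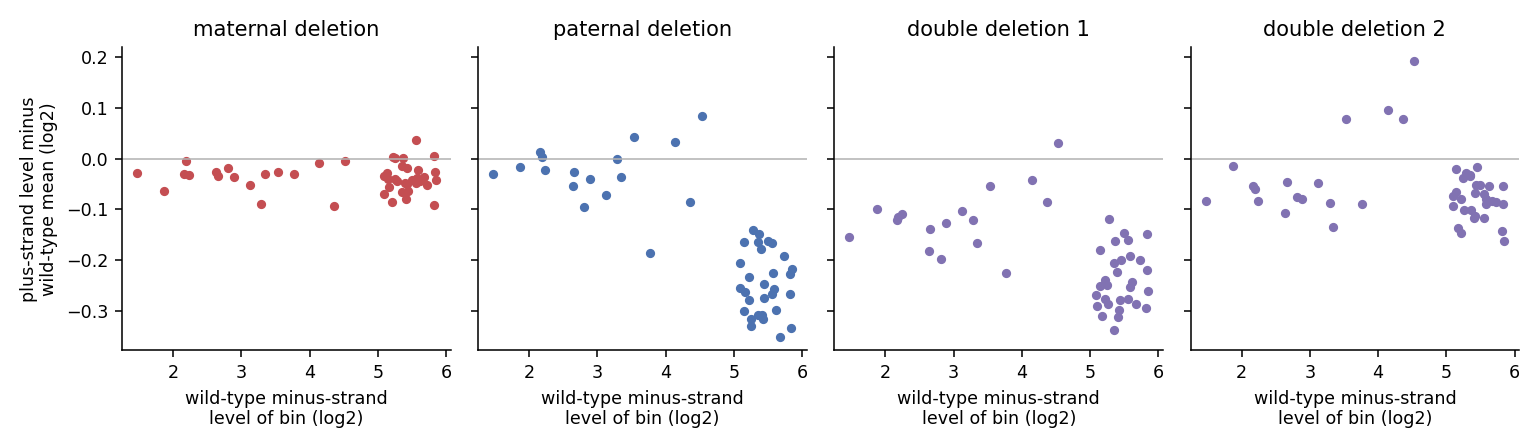
Difference of each member bin's plus-strand level from the wild-type mean (log2, vertical axis) against the wild-type level of the minus strand opposite it (log2, horizontal axis), 1 panel per mutant sample, 47 points each. The bins of the paternal deletion fall lower where the opposite strand is bright, down to -0.35, and those of the maternal deletion stay within -0.09 and 0.04.

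In a small set of plus-strand probes the order of the total RNA samples resembled that of the minus strand. In the paternal deletion 49 of 5525 member probes lay at least 2 log2 units below the wild-type mean, which is 0.887% beside 9.51% of all 53801 probes with values. As far above it lay 0 members, beside 0.0335% of all probes. The values of the paternal deletion chose these probes, so they are described without a test. They lie in 14 bins, 47 of them in bins that face a bright minus strand. Such bins are 33 of the 47 member bins. They also have the higher plus-strand level in wild types, 0.33 against -0.24, and a dim probe cannot fall this far. What part this has in the share was not tested. Their median intensity was 501 in the maternal deletion, 45 in the paternal deletion, 108 and 322 in the double deletions, 106 and 80.5 in polyA RNA, and 518 and 441 in wild types. Their order among total RNA samples was that of the minus strand: near wild type in the maternal deletion, lower in double deletion 2 and lower still in double deletion 1. The paternal deletion was near background, a place fixed by the choice of probes. In polyA RNA their mean levels, 0.90 and 0.64, lay near double deletion 2 at 0.97, while the polyA levels of their partners lay far below those of double deletion 2. Their partners on the minus strand averaged 4.15 in the maternal deletion, -1.0 in the paternal deletion, 0.55 and 2.89 in the double deletions, 1.0 and 0.86 in polyA RNA, and 4.44 and 4.27 in wild types.

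The probe at chr7:66786645-66786704 had the largest deficit. It read 797 in the maternal deletion, 42 in the paternal deletion, 142 and 559.5 in the double deletions, 184.5 and 145 in polyA RNA, and 785 and 733 in wild types. The probe at chr7:66678185-66678244 read 805 in the maternal deletion, 45 in the paternal deletion, 169 and 526 in the double deletions, 162.5 and 138 in polyA RNA, and 815 and 799.5 in wild types. In both, the paternal deletion alone was at the level of local background. The mean level of the 49 probes was 1.61 in the maternal deletion, -1.12 in the paternal deletion, -0.46 and 0.97 in the double deletions, 0.90 and 0.64 in polyA RNA, and 1.77 and 1.55 in wild types.

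**Figure D4:**
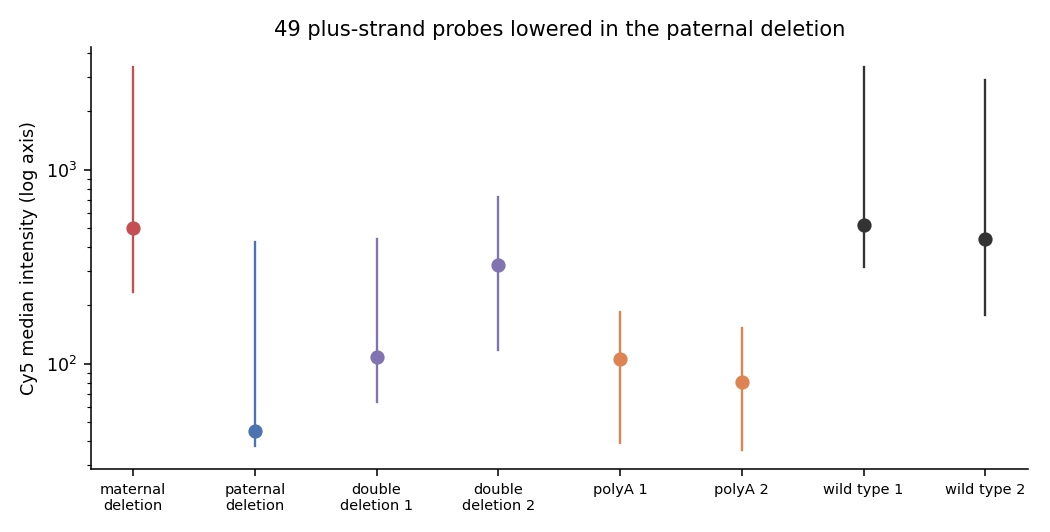
Cy5 intensity (log axis) of the 49 plus-strand probes that lay at least 2 log2 units below wild type in the paternal deletion, by sample; points are medians and bars run from the lowest to the highest probe. The median is 45 in the paternal deletion, 108 and 322 in the double deletions, and 518 and 441 in wild types.

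Of the 4781 tested member probes, 3574 lay below wild type in the paternal deletion and 3118 in the maternal deletion. The median difference was -0.12 in the paternal deletion, beside -0.02 over all tested probes, and -0.06 in the maternal deletion, beside -0.07. Differences of paired probes on both strands in the paternal deletion had r = 0.288 and Spearman's rho = 0.444 over 5521 pairs. In the maternal deletion r was -0.0155 over 5524 pairs. The test over all probes called 0 of 4781 tested member probes for the paternal deletion in limma, and 0% of all probes. Of the members 211 had an unadjusted p under 0.05 (189 lower and 22 higher), beside 9293 of all 49369 tested probes, a larger share. For the maternal deletion it also called 0 of 4781, and 0% of all probes. There 119 members had an unadjusted p under 0.05 (42 lower and 77 higher), beside 6193 of the 49369, again a larger share.

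In the double deletions the plus strand as a whole did not pass the test either. Their mean of -0.03 ± 0.09, against 0.09 ± 0.04 in wild types (SD, n = 2 each), differed by -0.12 (SE 0.07, 95% interval -0.33 to 0.09, limma adjusted p 0.358). Of 47 bins 0 were called in limma, and 18.8% of all bins were called in this comparison, 15.4% higher and 3.36% lower. An unadjusted p under 0.05 was found for 1 of the 47, beside 100 of all 357 bins. Double deletion 1 lay below both wild types in 46 of 47 bins (75.9% of all bins) and above both in 1 (20.4% of all bins), and double deletion 2 below both in 34 of 47 (46.8% of all bins) and above both in 4 (42.3% of all bins). The bin that starts at 66660001 measured -0.52 and -0.35 in the double deletions, against -0.16 and -0.26 in wild types, a difference of -0.22 (SE 0.09, limma adjusted p 0.24). Those starting at 66800001 and 66730001 differed by -0.22 and -0.21 (adjusted p 0.24 and 0.287). Taken singly, double deletion 1 differed from the wild-type mean by -0.18 over the region and double deletion 2 by -0.06.

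Of 4781 member probes tested, 26 were called in the double deletions against wild type (limma, adjusted p under 0.05), 10 higher and 16 lower, which is 0.544% beside 8.85% of all probes (5.97% higher and 2.88% lower). At an unadjusted p under 0.05 there were 626, beside 13471 of all 49369 tested probes, a larger share. The probe at chr7:66613615-66613674 measured 4.05 and 4.21 in the double deletions, against 2.95 and 2.85 in wild types, and was higher by 1.23 (SE 0.12, limma adjusted p 0.0356). The probe at chr7:66803915-66803974 measured 1.89 and 2.04 in the double deletions, against 3.01 and 3.06 in wild types, and was lower, with a difference of -1.07 (SE 0.12, limma adjusted p 0.0365). In both probes the groups did not overlap, and the maternal deletion, at 2.94 and 2.91, stood with the wild types. This did not hold for all 26. At the called probe chr7:66600195-66600254 the maternal deletion, at 0.84, stood near the double deletions, at 0.96 and 0.92, with wild types at 0.27 and 0.28. These probes were picked after their values were seen. The number of probes called changed with the sample left out, so it rests on these few samples.

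Set against the maternal deletion, whose maternal chromosome they share, the double deletions test the promoter deletion. Their mean of -0.03 ± 0.09 (SD, n = 2), against 0.06 in the maternal deletion, differed by -0.08 (SE 0.08, 95% interval -0.34 to 0.18, limma adjusted p 0.734). No bin was called (0 of 47 in limma, 0 at an unadjusted p under 0.05), and 0% of all bins were called. The bins farthest apart began at 66720001, 66860001 and 66810001, with differences of -0.19, -0.17 and -0.17. Without double deletion 1 the region differed by -0.02 and the bin from 66860001 by -0.02, and without double deletion 2 they differed by -0.14 and -0.32. The minus strand opposite the 33 bins differed by a median of -2.32 in the same comparison, and the plus strand there by -0.12. On the plus strand 0 of 4781 probes were called in limma, and 0% of all probes were called. An unadjusted p under 0.05 was found for 349 members, beside 6385 of all 49369 tested probes, a larger share.

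The maternal and the paternal deletion, which are the same deletion on opposite chromosomes, were compared directly, with 1 sample each and the spread taken from the other groups. The difference between 0.06 in the maternal deletion and -0.05 in the paternal deletion was 0.11 (SE 0.09, 95% interval -0.19 to 0.41, limma adjusted p 0.695). In limma 0 of 47 bins were called, 0 had an unadjusted p under 0.05, and 0% of all bins were called. The bins farthest apart, from 66720001, 66790001 and 66820001, had differences of 0.32, 0.31 and 0.31 (adjusted p between 0.318 and 0.391). Over the 33 bins that face a bright minus strand the plus-strand difference had a median of 0.20, and over the other 14 it was 0.00. The minus-strand medians were 5.38 and 2.60 for the same sets.

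The wild types gave both polyA and total RNA. The region averaged 0.41 ± 0.01 in polyA RNA and 0.09 ± 0.04 in total RNA (SD, n = 2 each), a difference of 0.32 (SE 0.03, 95% interval 0.23 to 0.41), with an adjusted p of 0.00192 in limma. Of 47 bins 30 were called, 28 higher and 2 lower, where 79.3% of all bins were called, 40.9% higher and 38.4% lower. The bin that starts at 67110001 measured -0.13 and -0.12 in polyA RNA, against -0.92 in both total RNA samples, and rose by 0.79 (SE 0.02, limma adjusted p 0.00021). Those starting at 67070001 and 67120001 rose by 0.77 and 0.75. The only bins called lower began at 66630001 and 66710001, with differences of -0.37 (SE 0.04, adjusted p 0.0021) and -0.33 (SE 0.04, adjusted p 0.00526), and both are among the highest bins of the region. Both polyA samples lay above both total RNA samples in 40 of 47 bins (49% of all bins) and below both in 2 (42.9% of all bins).

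The direction of this comparison depended on dim probes and on the scale. The outside-locus percentile that sets the scale read 47 and 46 on polyA arrays, against 140 and 135 on total RNA arrays, and thus lay close to the local background of 34 on polyA arrays. Probes with a wild-type total RNA level below -1 differed by 1.02 and 1.04 in polyA RNA, and those at 4 or more by -0.57 and -0.87, as a description, since that level chose them. Over probes well above background on every array the region differed by -0.12 (limma adjusted p 0.174), and with the median of outside probes as the scale by -0.50 (limma adjusted p 0.000379). It differed by 0.70 on the scale of outside probes well above background, by 0.89 with plain background subtraction and by 1.66 on a scale that includes the locus. The minus strand exceeded the plus strand by 1.44 and 1.32 in polyA RNA, against 4.20 and 4.14 in total RNA, which no scale alters. At the level of probes 2990 of 4409 were called in limma, 67.8% beside 73% of all probes, with 2077 higher and 913 lower (32.2% and 40.8% of all probes).

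A small share of plus-strand probes was very bright. Of the member probes 285 (5.16%) had a wild-type level of at least 4, and 281 of these were custom probes. The number of probes at that level was 294 in the maternal deletion, 285 in the paternal deletion, 300 and 322 in the double deletions, 240 and 209 in polyA RNA, and 300 and 279 in wild types. Of the wild-type set, 278 stayed at that level in the maternal deletion and 273 in the paternal deletion. The set's mean difference from wild type was -0.11 in the maternal deletion and 0.03 in the paternal deletion. Its partners on the minus strand averaged 6.39 in wild types and 5.75 in the paternal deletion, whereas the partners of probes below -1 averaged 2.47 in wild types and -0.88 in the paternal deletion. Probes that were bright on the plus strand thus had partners that were bright on average, also in the paternal deletion. This did not hold for each probe: the partner of the one at chr7:67005286-67005345, at 6.12 and 5.24 in wild types, measured 0.86 in the paternal deletion. Over the 5523 pairs with values the wild-type plus level had a Pearson correlation of 0.679 with the minus level of the paternal deletion, against 0.44 with that of wild types over 5527 pairs, as a description of probes that share positions.

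The brightest probes reached the scanner's limit, so their levels are lower bounds. Between 4 and 18 member probes were saturated on each total RNA array and 0 on polyA arrays. The probes at chr7:66915565-66915624, chr7:66713165-66713224 and chr7:67141356-67141415 were saturated on all 6 total RNA arrays. On polyA arrays they read 25699 and 19298, 9647 and 7948, and 17286.5 and 14671, in the same order.

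Plus-strand levels recurred at regular distances. In the longest run of bins that face a bright minus strand, 24 bins within 66610001 to 66870000, custom probes 1870 bp apart had a Pearson correlation of 0.48 in the paternal deletion, 0.31 in polyA RNA and 0.48 in wild-type total RNA over 2130 pairs. One probe step to either side, at 1760 and 1980 bp, the wild-type value was 0.05 and 0.01. Peaks followed at 3740, 5610 and 7480 bp with 0.42, 0.34 and 0.28 in wild types. In the next longest run, 8 bins within 66930001 to 67070000, the value at 2530 bp was 0.66 in the paternal deletion, 0.70 in polyA RNA and 0.67 in wild-type total RNA over 548 pairs, beside 0.07 at 2420 and 0.07 at 2640 bp in wild types. Peaks followed at 5060 and 7590 bp with 0.54 and 0.61. Lower ones stood between these distances, at 1210 and 1320 bp with 0.34 and 0.33 and at 3740 bp with 0.21 in wild types. Probe pairs share arrays and may share base composition, so these values are descriptions.

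**Figure D5:**
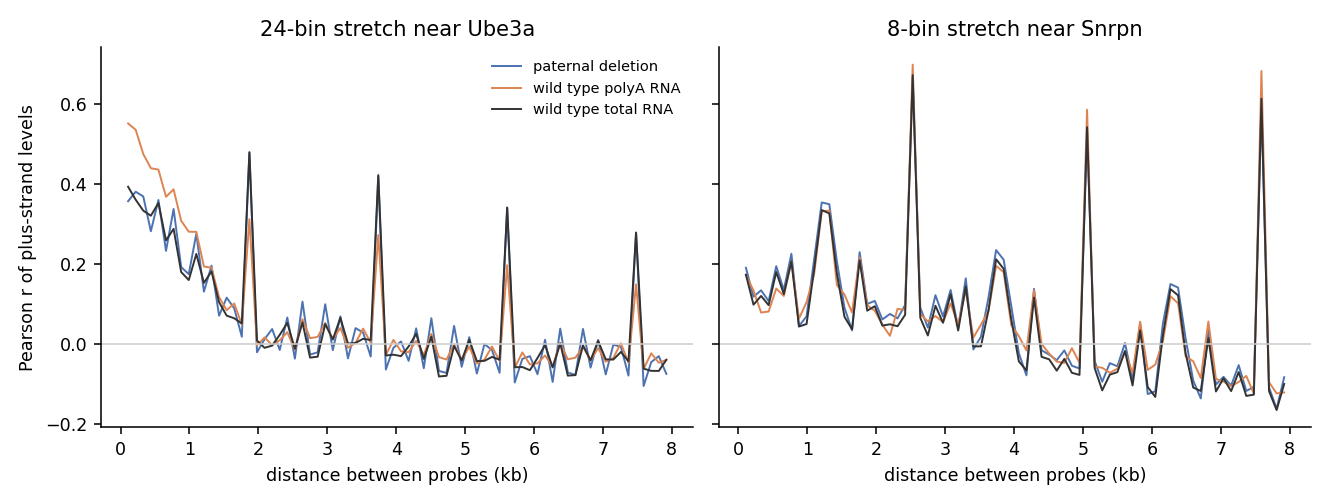
Pearson correlation between plus-strand levels of custom probes against the distance between them (kb), in the 24-bin stretch near Ube3a (left) and the 8-bin stretch near Snrpn (right), for the paternal deletion, polyA RNA and total RNA of wild types. Sharp peaks stand at multiples of 1870 bp on the left and of 2530 bp on the right, of nearly the same height in the paternal deletion and in wild-type total RNA at the first peak (0.48 on the left). Lower peaks stand between the multiples on the right.

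The same distances separate annotated genes of the opposite strand. In RefSeq, build GRCm38.p6, 134 small nucleolar RNA genes between Ube3a and Ipw start at a median distance of 1871 bp from each other, and 72 between Ipw and Snurf at 2528 bp, 18 of which carry the name Snord116. The minus strand of the first stretch had r = 0.76 in wild types and 0.55 in the paternal deletion at 1870 bp. That of the other stretch had 0.57 in both at 2530 bp. Both strands thus showed these distances, and whether plus-strand signal at repeated probes comes from RNA of that strand was not tested.

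Within the stretch near Snrpn 1 phase of the repeat was far brighter than the rest. The 23 custom probes spaced by multiples of 2530 bp at that phase averaged 6.30 in the maternal deletion, 6.13 in the paternal deletion, 6.37 and 6.26 in the double deletions, 6.26 and 5.87 in polyA RNA, and 6.46 and 6.05 in wild types. The other 613 custom probes of the stretch averaged 0.47 in the maternal deletion, 0.37 in the paternal deletion, 0.34 and 0.45 in the double deletions, 0.64 and 0.59 in polyA RNA, and 0.52 and 0.46 in wild types. The phase was chosen as the brightest in wild types. Its median intensity was 29343 in the maternal deletion, 35025.5 in the paternal deletion, 26377 and 26256.5 in the double deletions, 15312 and 16103 in polyA RNA, and 32426 and 24961.5 in wild types. The series was bright in all 8 samples, but not at each position: the lowest of the 23 probes read between 35.5 and 47.

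At the Snrpn end the plus strand changed abruptly. The last 2 kb inside the region averaged -0.88 in the maternal deletion, -0.89 in the paternal deletion, -0.99 and -0.97 in the double deletions, and -0.87 and -0.86 in wild types. Beyond position 67147631, the 47 probes that complete the border bin averaged 1.98 in the maternal deletion, 1.31 in the paternal deletion, 2.15 and 2.17 in the double deletions, and 0.39 and 0.34 in wild types. That outer piece was higher by 1.61 in the maternal deletion (SE 0.06, limma adjusted p 0.0316) and by 1.80 in the double deletions (SE 0.05, limma adjusted p 0.0125). In the paternal deletion the difference was 0.94 (SE 0.06, limma adjusted p 0.114). It was the only bin of 357 called in the maternal deletion, and the gain was not seen in the stretch of the region next to it. At the Ube3a end there was no such step between genotypes: the 10 kb outside averaged -0.63 in the maternal deletion, -0.62 in the paternal deletion, -0.73 and -0.67 in the double deletions, and -0.58 and -0.57 in wild types.

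The non-member bins whose level over the 6 total RNA samples went most like that of the region were all on the minus strand near Snrpn. They began at 67140001 (r = 0.97), 67090001 (r = 0.955) and 67060001 (r = 0.947), out of 310 bins. The first measured 2.11 in the maternal deletion, 0.60 in the paternal deletion, 0.28 and 1.5 in the double deletions, and 2.23 and 2.15 in wild types. The minus-strand bin thus varied far more between these samples than the region did, so the likeness is in the order of the samples and not in size.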

How the data were processed

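The deposited scanner files hold the intensity of each spot on a linear scale, per the file headers from Agilent Feature Extraction 10.7.3.1 for a design on build mm9, while the submitters' processing notes name version 10.9. Per the labels' protocols, random hexamers primed Cy5-labelled first-strand cDNA on 15 µg of total RNA or on 750 ng of polyA RNA (isolated out of 30 µg), read in the red channel. The 8 arrays lay on 1 slide with 1 scan, so no batch could be fitted. The number of arrays limits the precision.

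Red median intensities were corrected with normexp (offset 50, local background) in limma 3.58.1 under R 4.3.3 and put on the log2 scale. Control spots and spots marked as outliers were left out, spots of a probe were averaged, and the array's 75th percentile of probes outside the tiled locus was subtracted. Probes entered a test when the scanner software called them well above background on all arrays of at least 1 group. A bin is the mean over all its probes and needed at least 3 tested probes. The region's mean was fitted as 1 row with the table of bins (limma lmFit with eBayes, two-sided, adjusted by Benjamini-Hochberg over the whole table, threshold 0.05). The 6 total RNA samples formed 4 groups with 1 shared spread, so the single deletions borrow theirs. For polyA RNA a fit of its own used the 4 wild-type samples. The fit of the total RNA samples was tested on simulated data, for probes of the paternal deletion against wild type only. The fits of bins and of polyA RNA were not.

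Wild-type and polyA samples of the same number come from the same RNA, per the series' design text. Their deviations from the group means had a correlation of 0.20 over all bins and -0.11 over the member bins.

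Named are the region, its first and last bin, the 3 highest and 3 lowest bins in wild types, for each comparison the 3 bins that changed most in each direction past the threshold or, where none passed, the 3 with the largest absolute difference, and the 3 other bins most like the region. Members, rules and alternatives were chosen with earlier results of these data known. Alternatives covered the scale, background correction, probe filter, summary, grouping, source of values, replicate block and leaving out each replicate. Sequences of the probes and the mm9 genome were not used here.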

Additional observations from a re-analysis of the deposited data

How the results depend on the processing

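With the 75th percentile of all probes as the scale, which adds 1.25 to the paternal deletion, 0.47 to the double deletions and 1.34 to polyA RNA because that percentile includes the minus strand, the region's difference was 1.11 in the paternal deletion (limma adjusted p 0.0268), 0.35 in the double deletions against wild type, 0.35 against the maternal deletion, and -1.11 for the maternal against the paternal deletion. Bins called then numbered 47 for the paternal deletion and 47 for polyA RNA, all higher. These and the other counts of this section are of member bins and probes alone. The share over all bins or probes is not given for these settings, so the counts do not set the region apart from the rest of the array. Probes called numbered 16 (maternal deletion), 2927 (paternal deletion), 96 for the double deletions, 26 against the maternal deletion and 117 for the maternal against the paternal deletion. Named bins of the paternal deletion turned to 0.90, 0.92 and 0.92, those of the double deletions to 0.24, 0.25 and 0.26, and against the maternal deletion to 0.24, 0.26 and 0.26. For the maternal against the paternal deletion they turned to -0.90, -0.90 and -0.91, and the polyA bins to 0.97 and 1.01. Quantile normalization gave 0.20 for the paternal deletion, 0.043 for the double deletions, 0.12 against the maternal deletion and -0.28 for the maternal against the paternal deletion. Its bins called numbered 1 for the paternal deletion and 46 for polyA RNA, and its probes called 0 for the double deletions and 1554 for polyA RNA. Named bins then turned to 0.068, 0.12 and 0.14 (paternal deletion), 0.027, 0.059 and 0.064 (double against maternal deletion), -0.17, -0.21 and -0.23 (maternal against paternal deletion), and 0.080 and 0.19 (polyA RNA).

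With the median of outside probes as the scale the double against the maternal deletion gave 0.011 and polyA RNA -0.50, with polyA bins at -0.022, -0.041 and -0.068. Scaled on outside probes well above background, 4 bins and 44 probes were called in the double deletions, and the lowered polyA bins stood at 0.0071 and 0.047. With plain background subtraction the maternal deletion gave 0.010, the lowered polyA bins 0.11 and 0.35, and the probes called numbered 69, 93, 52 and 1596 in the maternal deletion, in the paternal deletion, in the double deletions and in polyA RNA. Over probes well above background on every array polyA RNA gave -0.12, with 12 bins and 1616 probes called and bins at -0.13 and -0.16, and 0 probes were called in the double deletions. With each double deletion as its own group, 56, 186, 774, 310 and 198 probes were called for the maternal deletion, the paternal deletion, the double deletions, the double against the maternal deletion and the maternal against the paternal deletion, and 3 bins for the double deletions. With all 8 samples in 1 fit these numbered 45, 51, 249, 26 and 12, with 1 bin. Among alternatives added after seeing the data, the deposited series matrix with its own factors gave 9, 7 and 521 probes called for the maternal deletion, the double deletions and polyA RNA, catalogue probes alone 13 for the double deletions and 619 for polyA RNA, and custom probes alone 0 for the double deletions. The matrix on the outside-locus scale could not be run, since no probe outside the locus was found in it.

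Leaving out 1 replicate at a time gave a region difference of -0.06 to -0.01 in the maternal deletion, -0.17 to -0.11 in the paternal deletion, -0.18 to -0.06 in the double deletions, -0.14 to -0.02 between double and maternal deletions, and 0.29 to 0.34 in polyA RNA, with the lone sample assumed to vary like the other groups. Probes called then ran between 0 and 56, 0 and 187, 0 and 850, 0 and 372 (double against maternal deletion) and 0 and 198 (maternal against paternal deletion), and bins called in the double deletions between 0 and 13. With the replicate number as a block the polyA difference was 0.32, 36 bins were called, 34 higher and 2 lower, and 3032 probes were called, 2069 higher and 963 lower. The block changed the call of neither the region nor a named bin. Of 312 values of named bins under alternatives 34 turned sign, 5 passed the threshold where the reported value did not, and 10 lost it. The cause was not tested except for the scale on all probes. The single deletions rest on 1 sample each, and dim plus-strand probes near background limit what differences could be seen.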

Other observations

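Of 5527 plus-strand member probes, 4 differed between the wild types by at least 2 log2 units (0.0724%, beside 0.052% of all probes), each higher in wild type 1, and 0 of 5531 minus-strand probes at the same positions did so. The probes at chr7:67010346-67010405 and chr7:67028056-67028115 belong to the bright series with a repeat of 2530 bp. The first read 4073 in the maternal deletion, 540.5 in the paternal deletion, 2838 and 860 in the double deletions, 1482 and 135 in polyA RNA, and 3728 and 535.5 in wild types. The second read 2384 in the maternal deletion, 443.5 in the paternal deletion, 4844.5 and 1079 in the double deletions, 1479.5 and 152 in polyA RNA, and 3200 and 518 in wild types. At both probes the maternal deletion, double deletion 1 and each sample from wild type 1 were high, and the paternal deletion, double deletion 2 and each sample from wild type 2 were lower. They were picked after their values were seen.

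In the maternal deletion 10 member probes lay at least 2 log2 units above the wild-type mean and 0 as far below it, which is 0.181% beside 0.95% of all probes above and 0.113% below. The probe at chr7:66898735-66898794 read 1948.5 there, against 38 in both wild types, and the probe at chr7:67079375-67079434 read 774, against 42 and 39.5 in wild types. They have no replicate, and none was called by limma.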
